A study of Mus musculus with 4 samples.

Results

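The genes described here set the local balance between pyrophosphate and phosphate and with it the start of mineralization. They are Enpp1, Ank, Mgp, Phospho1, Slc20a1 and Slc20a2, which are 6 of the 32285 genes counted in 4 single-cell RNA-seq libraries of mouse fracture callus. They were named for their role in this pathway and chosen by the Enpp1 levels of RA and control mesenchymal cells at 7 days post fracture (dpf), so that comparison is given as a description and supports nothing. The question was whether the fall of Enpp1 in RA lay in 1 cell class.

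All mice were C57BL/6J wild-type animals of 3 months. RA mice received serum of K/BxN mice, whose transferred antibodies cause an inflammatory arthritis, and control mice received vehicle, so RA stands for a passive serum transfer model. Each library came from 1 pool of 4 calluses per the labels (control_4d, control_7d, RA_4d and RA_7d), scraped from the periosteal surface, digested and loaded as 10000 cells on the Chromium 3′ assay, which counts molecules (UMIs) near the 3′ end of a transcript. With 1 library per group no test between RA and control was possible, and the preparation of a library and its condition cannot be told apart. The intervals below are 95% intervals of counting error only and do not cover the spread between mice.

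The kept cells numbered 4110 to 8223 per library, 25479 in all, with a median of 16093.5 to 17631.5 UMIs per cell, and any pair of libraries shared 5 to 15 barcodes. Cells were clustered without these genes and named from marker lists, as 8 mesenchymal classes (committed mesenchymal progenitor-like, osteogenic-like, chondrogenic-like, tenocyte precursor-like, fibroblast-like, fibroblast precursor-like, cycling and unnamed mesenchymal), a mural-like class, 4 myeloid classes (macrophage-, monocyte-, dendritic- and osteoclast-like) and others. The summed level of 7 mesenchymal markers was 39836 to 61421 CPM (the gene's UMIs scaled to 1000000 UMIs of the class) in the mesenchymal cells of the 4 libraries, against 140 to 939 CPM in myeloid cells. Macrophage markers summed to only 22.1 to 30.3 CPM in mesenchymal cells, against 7581 to 10732 CPM in macrophage-like cells. Mature bone markers were sparse: of 7 osteogenic markers, 2 and 1 were at 0 in the osteogenic-like cells of control_4d and RA_4d, which held 24 and 27 cells, against 161 and 77 in control_7d and RA_7d. Sp7 and Bglap, which mark bone-forming cells, were higher in chondrogenic-like cells (60.9 and 156 CPM over all libraries) than in osteogenic-like cells (49.1 and 16.8). Chondrogenic-like cells numbered 3 and 4 at 4 dpf, too few to compare, and 198 and 120 at 7 dpf in control and RA.

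Extracellular pyrophosphate blocks the growth of hydroxyapatite crystals. ENPP1 makes it outside the cell from nucleotide triphosphates, and ANK moves pyrophosphate or its nucleotide precursor out of the cell. Tissue-nonspecific alkaline phosphatase, the product of Alpl, breaks pyrophosphate down to phosphate, and PHOSPHO1 releases phosphate inside matrix vesicles. SLC20A1 and SLC20A2 carry phosphate with sodium into the cell, and MGP is a secreted, carboxylated matrix protein that inhibits calcification of cartilage and vessels. In a fracture callus, cartilage is laid down first and then mineralized and replaced by bone, so the cells that hold each part of this balance change with time.

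Enpp1 lies on the minus strand of chr10:24637914-24712159 (GRCm38, the genome of mm10). The 250 bases before its RefSeq start site, chr10:24712160-24712409 on the minus strand, are printed because the RA comparison turns on this gene. The capitals mark the only match, on either strand, to the NF-kB consensus, a motif bound by factors of inflammatory signalling.

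Enpp1 upstream: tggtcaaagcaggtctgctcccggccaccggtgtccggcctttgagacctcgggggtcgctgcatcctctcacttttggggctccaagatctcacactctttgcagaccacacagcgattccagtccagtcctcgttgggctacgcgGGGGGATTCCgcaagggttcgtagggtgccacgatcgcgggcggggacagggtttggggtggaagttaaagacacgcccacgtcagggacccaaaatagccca

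This match starts 103 bases before the start site. The same search in 32851 mouse promoter windows of 300 bases (250 before to 50 after a start site) found the motif in 8.46% of them. It was not found in the windows of Ank, Phospho1 or Slc20a1. A second motif, the core site of the Notch transcription factor RBPJ, was searched in the same way and found in 25.6% of all windows. It had 1 match in a window of Slc20a1 and none in those of Enpp1, Ank and Phospho1. The window of Enpp1 held 22 CpG dinucleotides, that of Ank held 53 and that of Phospho1 held 42, while the pair of windows of Slc20a1 held 36 and 6, against a median of 7 over all windows. These letters are a description of the window and say nothing of what binds there.

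Enpp1 was found mainly in mesenchymal and macrophage-like cells. In the sum of all mesenchymal cells its level was 44.1 CPM in control_4d, 28.3 in RA_4d, 83.0 in control_7d and 28.3 in RA_7d. RA_7d thus held the level of RA_4d, and control_7d stood above all 3 other libraries. RA was lower than control at both times, with a log2 ratio of −0.62 (ratio 0.641, 0.582 to 0.704) at 4 dpf and −1.52 (ratio 0.341, 0.326 to 0.357) at 7 dpf. A gene was compared where RA and control together gave 50 UMIs or more, and of all such genes 1.04% were lower in RA by a fold of at least 2 in these cells at 7 dpf and 0.880% at 4 dpf. From 4 to 7 dpf the level rose 1.88-fold (1.77 to 2.00) in control, and the ratio was 1.00 (0.919 to 1.09) in RA.

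In committed mesenchymal progenitor-like cells, which made up 20.2% to 30.6% of the mesenchymal cells of a library, Enpp1 stood at 73.4 CPM in control_4d, 32.3 in RA_4d, 117 in control_7d and 41.5 in RA_7d. Both RA libraries were below both control libraries. The log2 ratio was −1.16 at 4 dpf (ratio 0.440, 0.373 to 0.518) and −1.48 at 7 dpf (ratio 0.354, 0.330 to 0.380). Beside this, 0.962% of the tested genes at 4 dpf and 1.12% at 7 dpf were lower by a fold of at least 2. The share of these cells with an Enpp1 UMI, each cell thinned to 4000 UMIs, was 24.6% and 15% in control_4d and RA_4d, and 33.0% and 12.6% in control_7d and RA_7d (74.5% and 43.6% at 7 dpf without thinning). The fall at 7 dpf was present in each of the 3 clusters of this class, led by Tnn, Eln and Cxcl5, with log2 ratios of −1.33, −1.51 and −1.57. It was spread over many cells, since the 5 cells with the most UMIs held 5.32% of the Enpp1 UMIs in control_7d and 6.81% in RA_7d.

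**Figure D1:**
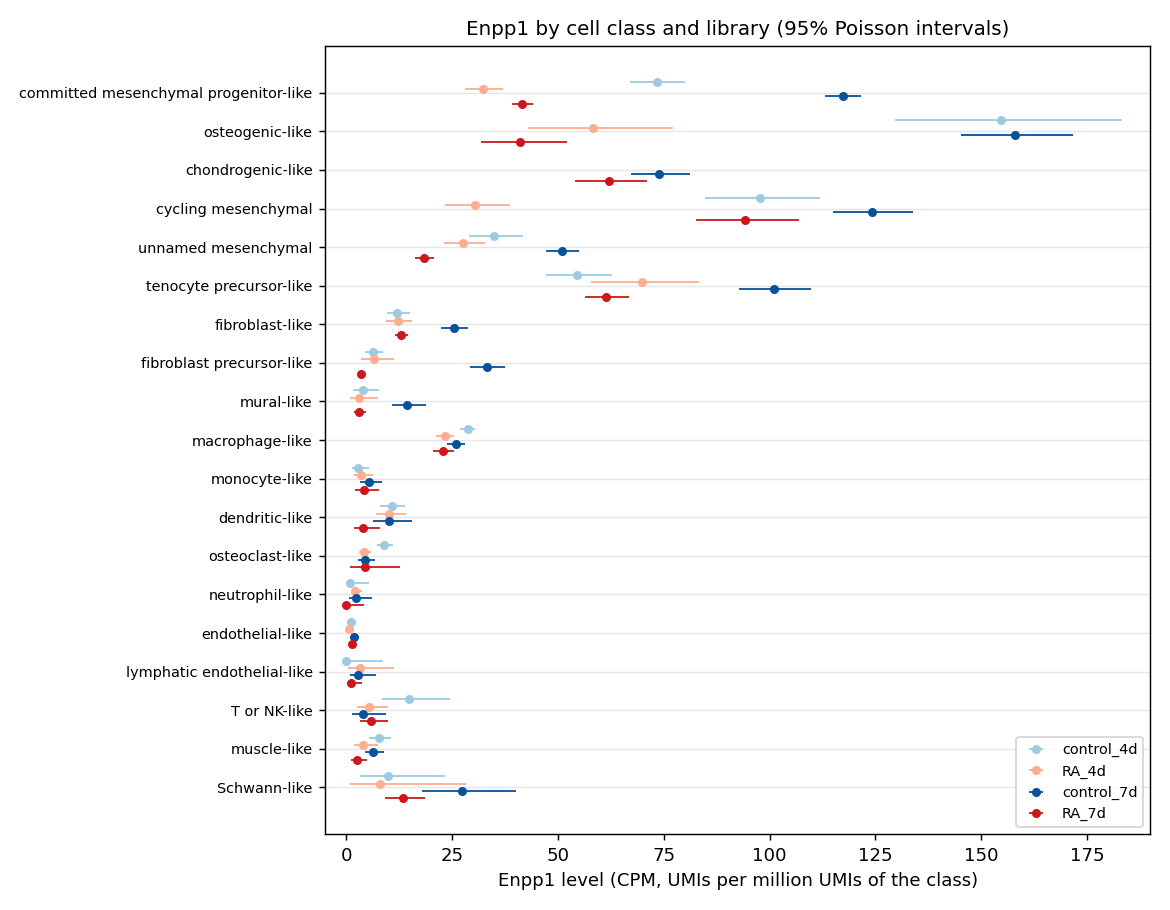
Enpp1 level in CPM (x axis) by cell class (y axis) and library (colour), with bars for the 95% Poisson interval of counting error, for classes with at least 20 cells in the library. The control_7d point is the rightmost in committed (117), cycling (124) and osteogenic-like cells (158 CPM), and the 4 macrophage-like points lie between 22.8 and 28.6 CPM.

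Osteogenic-like cells carried Enpp1 at 155 CPM in control_4d, 58.2 in RA_4d, 158 in control_7d and 41.0 in RA_7d. Control cells of both times were high and RA cells of both times were low, at log2 ratios of −1.39 (4 dpf, ratio interval 0.265 to 0.527) and −1.92 (7 dpf, 0.198 to 0.334). These ratios rest on 134 and 48 UMIs at 4 dpf and on 556 and 67 UMIs at 7 dpf, and the background of genes lower by a fold of at least 2 was also wider here, 4.73% and 2.60%. At 4 dpf the 5 highest cells held 57.5% of the UMIs in control and 64.6% in RA, and at 7 dpf 31.5% in control and 40.3% in RA. The summed osteogenic markers of the class were 1018 and 1017 CPM in control_7d and RA_7d.

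Chondrogenic-like cells, which expressed Sox9, Acan and Col2a1, had an Enpp1 level at 7 dpf of 74.0 CPM in control (67.4 to 81.1) and 62.1 in RA (54.0 to 71.0), a log2 ratio of −0.25 (ratio 0.839, 0.710 to 0.989). A single control cell held 82 of the 458 UMIs. Without the 5 highest cells of each library the log2 ratio was 0.11, and the share of thinned cells with a UMI was 19.7% and 17.5%. At a clustering resolution of 0.3 the class gave −1.09. The log2 ratio of chondrogenic-like cells lay 1.25 above that of committed mesenchymal progenitor-like cells (0.99 to 1.5).

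Cycling mesenchymal cells held 97.6 CPM in control_4d, 30.3 in RA_4d, 124 in control_7d and 94.2 in RA_7d. At 4 dpf they were lower in RA by a log2 ratio of −1.65 (0.231 to 0.413 as a ratio), and 1.60% of genes were lower by a fold of at least 2. At 7 dpf the ratio was −0.39 (0.651 to 0.881), but 5 of the 80 RA cells held 48.3% of the UMIs, and without the 5 highest cells of each library it was −1.08.

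Fibroblast precursor-like cells, named by a list with Pi16 and Dpp4 and made of a cluster led by Il1rl1 and a cluster led by Pi16, had little Enpp1 except in 1 library. The level was 6.3 CPM in control_4d, 6.4 in RA_4d, 33.2 in control_7d and 3.4 in RA_7d, so that only control_7d stood out. The log2 ratio at 7 dpf was −2.94 (ratio 0.104, 0.0776 to 0.137), beside a background of 2.65%, and it lay 1.77 below that of committed mesenchymal progenitor-like cells (1.36 to 2.18). In control_7d, 260 of the 266 UMIs were in the cluster led by Il1rl1, in 83 of its 250 cells. In RA_7d that cluster held 46 UMIs, in 35 of its 444 cells. The value of the class is thus mostly that of the cluster led by Il1rl1. The cluster led by Pi16 made up 51 of the 301 cells of the class in control_7d and 257 of the 701 in RA_7d. The value depends on which cells bear the name, and without integration of the libraries the log2 ratio was −1.18 and no longer below that of committed mesenchymal progenitor-like cells.

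Fibroblast-like cells, which expressed Cxcl14, Gdf10 and Smoc2, held Enpp1 at 12, 12.1, 25.4 and 13.0 CPM in control_4d, RA_4d, control_7d and RA_7d. Again only control_7d stood above the others, with log2 ratios of 0.01 (0.710 to 1.43) at 4 dpf and −0.92 (0.431 to 0.608) at 7 dpf. Without integration the 7 dpf value was −0.07. Of the clusters in this class, those led by C3, Gdf10 and Hmcn2 gave −1.65, −0.92 and −0.41.

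Tenocyte precursor-like cells, marked by tendon genes, went the other way at 4 dpf. Their level was 54.6 CPM in control_4d, 69.8 in RA_4d, 101 in control_7d and 61.4 in RA_7d, with log2 ratios of 0.35 (1.01 to 1.61) and −0.71 (0.539 to 0.685). The unnamed mesenchymal cells, 2 clusters led by Saa3 and Sfrp1, held 34.9, 27.6, 51.0 and 18.4 CPM in the same order, with log2 ratios of −0.33 (0.613 to 1.02) and −1.43 (0.311 to 0.416) and a background at 7 dpf of 0.934%. These values depended on which cells stayed unnamed, since a looser cell filter gave −2.33 at 4 dpf and a resolution of 1 gave −4.01 at 7 dpf.

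At 7 dpf Enpp1 was lower in RA in all 8 mesenchymal classes (in chondrogenic-like cells only while the 5 highest cells were kept), past a fold of 2 in the unnamed mesenchymal, osteogenic-like, committed and fibroblast precursor-like cells, and the fall was not confined to 1 class. Of all genes compared, 0.906% in fibroblast-like, 0.832% in tenocyte precursor-like, 1.16% in cycling and 1.02% in chondrogenic-like cells were lower by that fold. Outside the mesenchymal classes, Schwann-like cells held 26 Enpp1 UMIs of 952251 in control_7d and 33 of 2482031 in RA_7d. Enpp1 was lower in RA in these cells under each of 10 alternative ways of processing, at log2 ratios of −0.995 to −0.628. At 4 dpf 6 mesenchymal classes had enough cells and UMIs. Enpp1 was past a fold of 2 in the committed, osteogenic-like and cycling cells, while the ratio interval included 1 in fibroblast-like and unnamed cells and lay above 1 in tenocyte precursor-like cells (0.805%, 0.793% and 2.33% of genes were lower by that fold in these 3 classes). The difference between classes was itself larger than counting error. Against committed mesenchymal progenitor-like cells, the log2 ratio at 4 dpf was higher by 1.54 in tenocyte precursor-like cells (1.14 to 1.94) and by 1.2 in fibroblast-like cells (0.66 to 1.73). At 7 dpf it was higher by 0.78 in tenocyte precursor-like cells (0.58 to 0.98) and by 0.53 in fibroblast-like cells (0.27 to 0.80), and the difference of unnamed mesenchymal cells was 0.02 (−0.21 to 0.26).

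**Figure D2:**
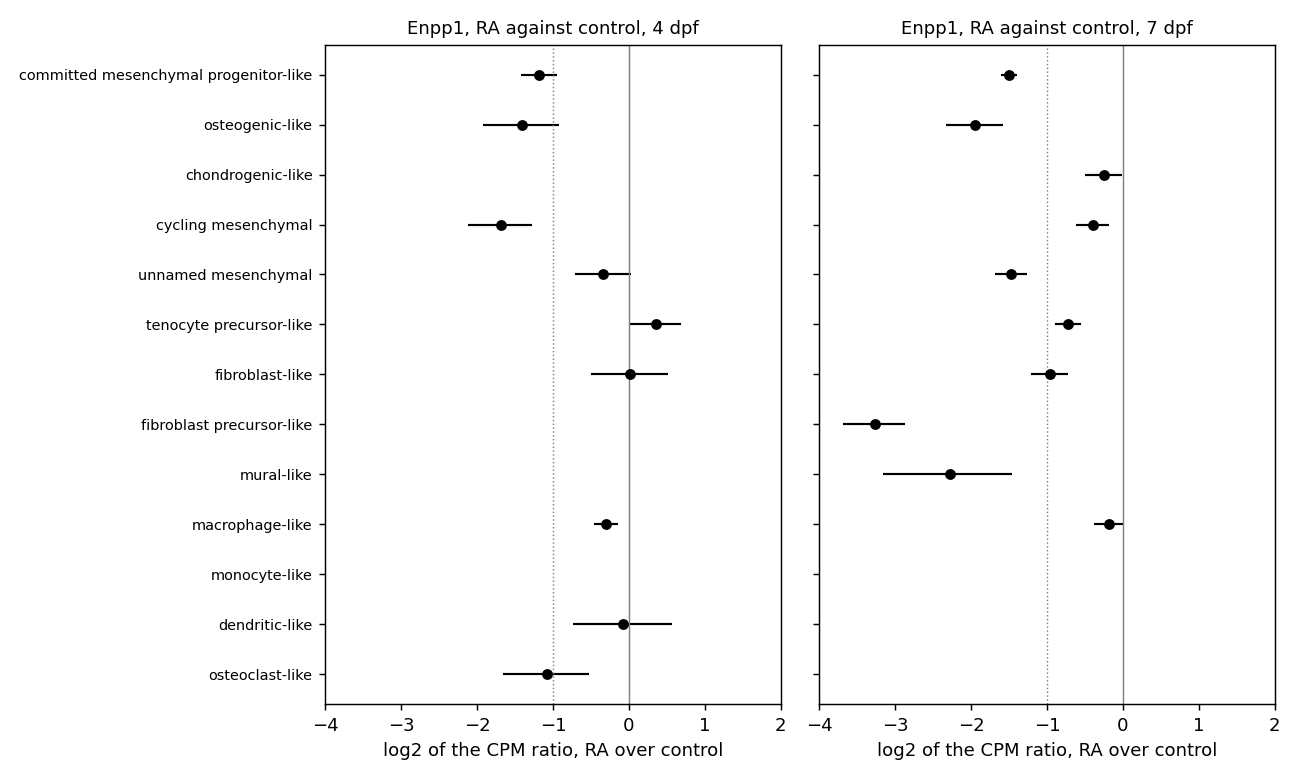
Log2 of the ratio of Enpp1 CPM, RA over control, without a pseudocount (x axis), by cell class (y axis) at 4 and 7 dpf, with the 95% interval of counting error; the dotted line marks a fold of 2, and classes not compared have no point. At 7 dpf all mesenchymal points lie left of 0, from −3.27 in fibroblast precursor-like to −0.25 in chondrogenic-like cells, and the macrophage-like point is at −0.18.

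The make-up of the mesenchymal cells also changed. Between control_7d and RA_7d, committed mesenchymal progenitor-like cells went from 30.6% to 23.1% of mesenchymal cells and osteogenic-like cells from 5.41% to 1.96%, while fibroblast precursor-like cells went from 10.1% to 17.8% and fibroblast-like cells from 16.9% to 28.2%. Chondrogenic-like cells went from 6.66% to 3.05%. With RA levels in each class and the class shares of control, the mesenchymal log2 ratio of Enpp1 at 7 dpf was −1.15. With control levels and the class shares of RA it was −0.28, against −1.52 observed.

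Mural-like cells, the Rgs5 and Myh11 expressing cells of vessel walls, were near the bottom of the range for Enpp1. They gave 3.8 CPM in control_4d, 2.9 in RA_4d, 14.4 in control_7d and 3.0 in RA_7d, from 8, 4, 51 and 17 UMIs. The log2 ratio at 7 dpf was −1.96 (ratio 0.206, 0.111 to 0.362), where 0.823% of genes were lower by a fold of at least 2. In control_7d 23 of the 51 UMIs, or 45.1%, and in RA_7d 9 of the 17, or 52.9%, were in cells called doublets, which made up 13 of 243 and 33 of 419 cells, and 1 control cell held 12. After thinning, 2.88% of control and 1.67% of RA cells held an Enpp1 UMI, against 0.722% and 0.452% of endothelial-like cells, a class at 1.7 and 1.3 CPM. Summed chondrogenic markers in mural-like cells were at 515 CPM in control_7d and 119 in RA_7d, and summed mesenchymal markers at 9410 and 9402 CPM. Whether either bears on the Enpp1 values of these cells was not tested. Once doublets were left out, fewer than 50 UMIs remained and mural-like cells were not compared.

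Myeloid cells were the other reservoir. Macrophage-like cells held Enpp1 at 28.6 CPM in control_4d, 23.3 in RA_4d, 25.8 in control_7d and 22.8 in RA_7d, a narrow range beside the mesenchymal classes. The log2 ratios were −0.29 (ratio 0.813, 0.727 to 0.907) at 4 dpf and −0.17 (0.883, 0.768 to 1.01) at 7 dpf, neither past a fold of 2, where 0.621% and 0.332% of genes were. At 7 dpf the ratio of macrophage-like cells lay 1.32 above that of committed mesenchymal progenitor-like cells on the log2 scale (1.10 to 1.54). Thinned macrophage-like cells had an Enpp1 UMI in 9.14% of control_7d and 7.80% of RA_7d cells, more than 10 times the share of endothelial-like cells. Dendritic-like cells gave 10.7, 10.1, 10.1 and 4.0 CPM in control_4d, RA_4d, control_7d and RA_7d, osteoclast-like cells 9.0, 4.2, 4.5 and 4.3, and monocyte-like cells 2.8, 3.5, 5.4 and 4.2. Several of these levels rest on few UMIs. Monocyte-like cells held 12 in RA_4d, 20 in control_7d and 10 in RA_7d, and the osteoclast-like value of RA_7d came from 34 cells. T or NK-like cells, which are not myeloid, held 15 Enpp1 UMIs of 1010419 in control_4d. Over all 4 myeloid classes the log2 ratio was −0.46 (0.645 to 0.791) at 4 dpf and −0.11 (0.808 to 1.05) at 7 dpf. The 4 dpf value holds osteoclast-like cells, where Enpp1 was lower by a log2 ratio of −0.93 (0.316 to 0.692). It also holds a change of class shares, since macrophage-like cells were 2311 of 3316 myeloid cells in control_4d and 1384 of 2183 in RA_4d. How far either moved the sum was not tested.

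Which cells supplied the callus with Enpp1 transcripts changed with time more than with RA. Mesenchymal cells held 50.7% of the Enpp1 UMIs of control_4d and 50.7% of those of RA_4d, and 85.3% and 83.0% at 7 dpf. Macrophage-like cells held 39.1% and 37.0% at 4 dpf and 7.75% and 9.72% at 7 dpf, when they had gone from 42.2% to 24.6% of kept cells in control and from 33.7% to 14.3% in RA.

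**Figure D3:**
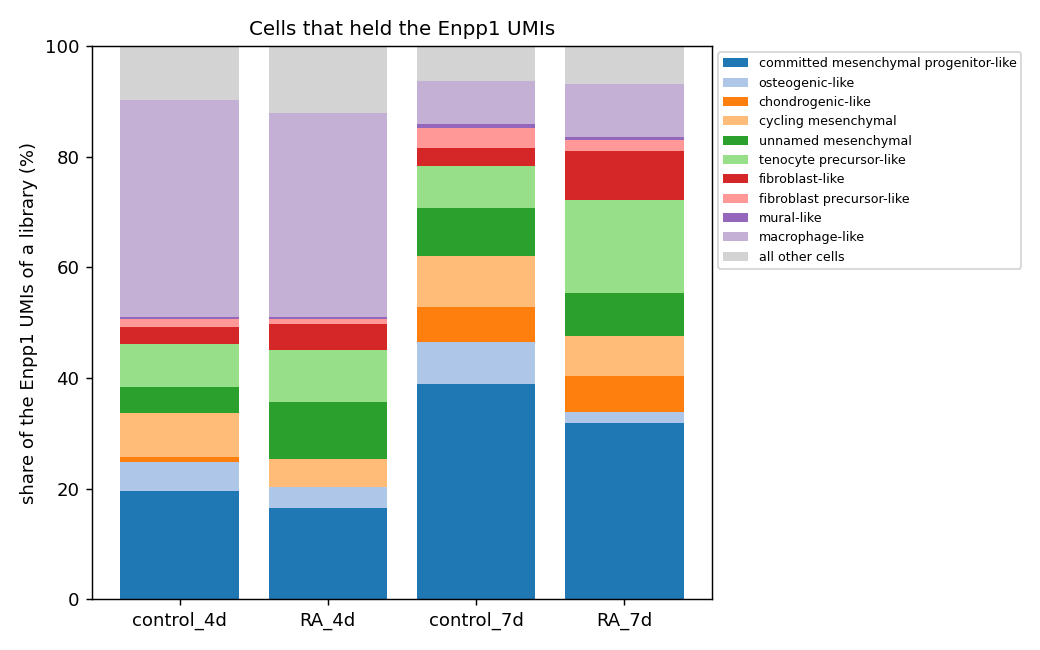
Share of a library's Enpp1 UMIs (y axis, percent) held by each class of cells (colour) in the 4 libraries (x axis). Mesenchymal classes together hold 50.7% in both 4 dpf libraries and 85.3% and 83.0% in control_7d and RA_7d, and macrophage-like cells shrink from 39.1% and 37.0% to 7.75% and 9.72%.

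Ank, the pyrophosphate exporter, had another pattern. It was not restricted to mesenchymal cells: osteoclast-like cells held 95.2 CPM in control_4d, 85.3 in RA_4d, 134 in control_7d and 173 in RA_7d, where 1 of 34 cells held 62 of the 120 UMIs and 86.1 CPM remained without it. Lymphatic endothelial-like cells held 76.7, 184, 150 and 129 CPM. In mesenchymal cells Ank was at 46.2, 50.9, 53.4 and 35.5 CPM in the same order, with log2 ratios of 0.14 (1.02 to 1.19) at 4 dpf and −0.58 (0.635 to 0.696) at 7 dpf. The 4 dpf value turned with the handling of cells, to −0.14 with a looser cell filter, −0.19 without tenocyte precursor-like cells and −0.16 with classes weighted equally, and was 0.01 without doublets, 1 of which held 98 of the 1172 UMIs of RA_4d. At 7 dpf RA was lower in committed mesenchymal progenitor-like (−0.67), osteogenic-like (−0.65), chondrogenic-like (−0.59), fibroblast-like (−0.25) and fibroblast precursor-like cells (−0.38), each with a ratio interval below 1, and none passed a fold of 2. In chondrogenic-like cells 1 control cell held 217 of the 714 UMIs, and without the highest cell of each library the log2 ratio was −0.16. Tenocyte precursor-like cells were higher in RA at both times, at 89.4 and 245 CPM in control_4d and RA_4d (log2 ratio 1.44, 2.36 to 3.18, beside 3.36% of genes higher by a fold of at least 2) and at 77.8 and 91.7 in control_7d and RA_7d (0.23, 1.05 to 1.33). In the cluster led by Chodl, 5 of 48 RA cells held 64.3% of the 319 UMIs, and without the highest cell of each library the 4 dpf value of the class was 0.78. Of thinned tenocyte precursor-like cells 44.0% held an Ank UMI in RA_4d and 28.4% in control_4d. Osteogenic-like cells were lower in RA at 4 dpf, at 454 CPM in control_4d and 146 in RA_4d (log2 ratio −1.63). Beside this, 4.73% of genes were lower there by a fold of at least 2. Both levels rest on few cells, since 5 of 24 held 88.5% of the 393 UMIs in control_4d. In RA_4d 1 doublet held 98 of the 120 UMIs, and without the 5 highest cells of each library the log2 ratio was −1.79. Fibroblast precursor-like cells were also lower at 4 dpf (−1.10), from 59 UMIs in control and 8 in RA. In macrophage-like cells Ank was at 31.5, 25.8, 28.0 and 33.7 CPM, with log2 ratios of −0.28 (0.736 to 0.909) and 0.26 (1.07 to 1.36), so the sign turned with time.

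Phospho1, the matrix vesicle phosphatase, was at the limit of detection. All kept cells together gave 7 UMIs in control_4d, 5 in RA_4d, 23 in control_7d and 15 in RA_7d. At 7 dpf 12 UMIs of control and 7 of RA were in chondrogenic-like cells (1.94 and 2.03 CPM, intervals 1.00 to 3.39 and 0.816 to 4.18) and 5 and 1 in osteogenic-like cells (1.42 and 0.611 CPM). Committed mesenchymal progenitor-like cells held none in any library, and a count of 0 allows up to 0.122 CPM in control_7d (3 counts). It passed the minimum of 50 UMIs in no class, and no difference between RA and control was detectable at this depth.

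Slc20a1, a sodium-phosphate carrier found in most cells, was more even. Lymphatic endothelial-like cells held it at 90.6, 119, 97.6 and 125 CPM in control_4d, RA_4d, control_7d and RA_7d, endothelial-like cells at 77.6, 82.5, 84.5 and 72.5, and muscle-like cells at 14.2, 13.0, 17.0 and 14.5. Mesenchymal cells gave 38.2, 55.9, 47.1 and 43.6 CPM. At 4 dpf RA was higher by a log2 ratio of 0.54 (1.35 to 1.59), where 0.752% of genes were higher by a fold of at least 2. Osteogenic-like cells were past that fold (1.07, 1.44 to 3.19, beside 5.86% of genes). Of the 81 UMIs there in RA_4d 18 were in 1 cell called a doublet, and without doublets the log2 ratio was 0.74. At 7 dpf the mesenchymal value was −0.11 (0.884 to 0.967), while chondrogenic-like cells held 32.3 CPM in control and 49.6 in RA (0.60, 1.24 to 1.89). Macrophage-like cells stayed between 38.2 and 43.3 CPM.

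Slc20a2, the second sodium-phosphate carrier, was at 34.6, 32.6, 27.3 and 29.1 CPM in the mural-like cells of control_4d, RA_4d, control_7d and RA_7d, whose intervals overlapped. Endothelial-like cells gave 22.8 to 26.0 CPM and macrophage-like cells 6.9 to 8.4. In mesenchymal cells the log2 ratio was 0.34 (1.11 to 1.49) at 4 dpf and −0.26 (0.760 to 0.892) at 7 dpf. Osteogenic-like cells went from 19.6 CPM in control_7d to 47.7 in RA_7d, from 69 and 78 UMIs, a log2 ratio of 1.24, beside 3.19% of genes that were higher by a fold of at least 2. A single RA cell held 21 of the 78 UMIs, and without the highest cell of each library the log2 ratio was 0.94.

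Mgp, the matrix inhibitor, varied in direction between classes and times. Tenocyte precursor-like cells held 4586 CPM in control_4d, 11483 in RA_4d, 4225 in control_7d and 5429 in RA_7d, and chondrogenic-like cells 5968 and 7697 at 7 dpf. Mesenchymal cells together gave 1273, 1760, 1802 and 2395 CPM, so RA was above control at each time, with log2 ratios of 0.47 and 0.41. In committed mesenchymal progenitor-like cells the level was 433, 482, 897 and 1738 CPM, with log2 ratios of 0.16 at 4 dpf and 0.95 at 7 dpf. Osteogenic-like cells went from 949 CPM in control_7d to 2278 in RA_7d (1.26), the only mesenchymal class past a fold of 2 at 7 dpf. The share of genes higher by that fold at 7 dpf was 3.19% there, 1.76% in committed, 1.19% in chondrogenic-like, 2.49% in fibroblast precursor-like, 1.38% in fibroblast-like, 1.38% in tenocyte precursor-like, 2.67% in cycling and 1.66% in unnamed mesenchymal cells. At 4 dpf Mgp was past a fold of 2 in tenocyte precursor-like (1.32) and fibroblast precursor-like cells (1.41), beside 3.36% and 2.17% of genes. It was lower in RA at 4 dpf in unnamed mesenchymal cells, from 798 to 556 CPM (−0.52, 0.660 to 0.735), and in cycling cells, from 555 to 498 CPM (−0.16, 0.825 to 0.976). Osteogenic-like cells held 1613 and 1398 CPM at 4 dpf (−0.21, 0.801 to 0.938), but 0.16 without the highest cell of each library. Fibroblast precursor-like cells went the other way at 7 dpf, from 172 to 125 CPM (−0.45). Counting intervals of Mgp are narrow (1.91 to 1.97 for the ratio in committed mesenchymal progenitor-like cells at 7 dpf) and say nothing of mice. Some Mgp was also counted in cells of other lineages: T or NK-like cells, which should lack it, were at 7.9 and 6.3 CPM at 4 dpf and at 91.2 and 75.9 at 7 dpf, where 1 control cell called a doublet held 47 of 114 UMIs and 54.2 CPM remained without it. Macrophage-like cells, at 6.5, 4.0, 40.0 and 52.9 CPM, were at or below that level in every library, so their values are read as background. The 696 CPM of monocyte-like cells in control_7d came from 1 cell, which held 2453 of 2594 UMIs. Mural-like cells held Mgp at 1090, 1047, 1754 and 1073 CPM, with a log2 ratio of −0.71 at 7 dpf.

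**Figure D4:**
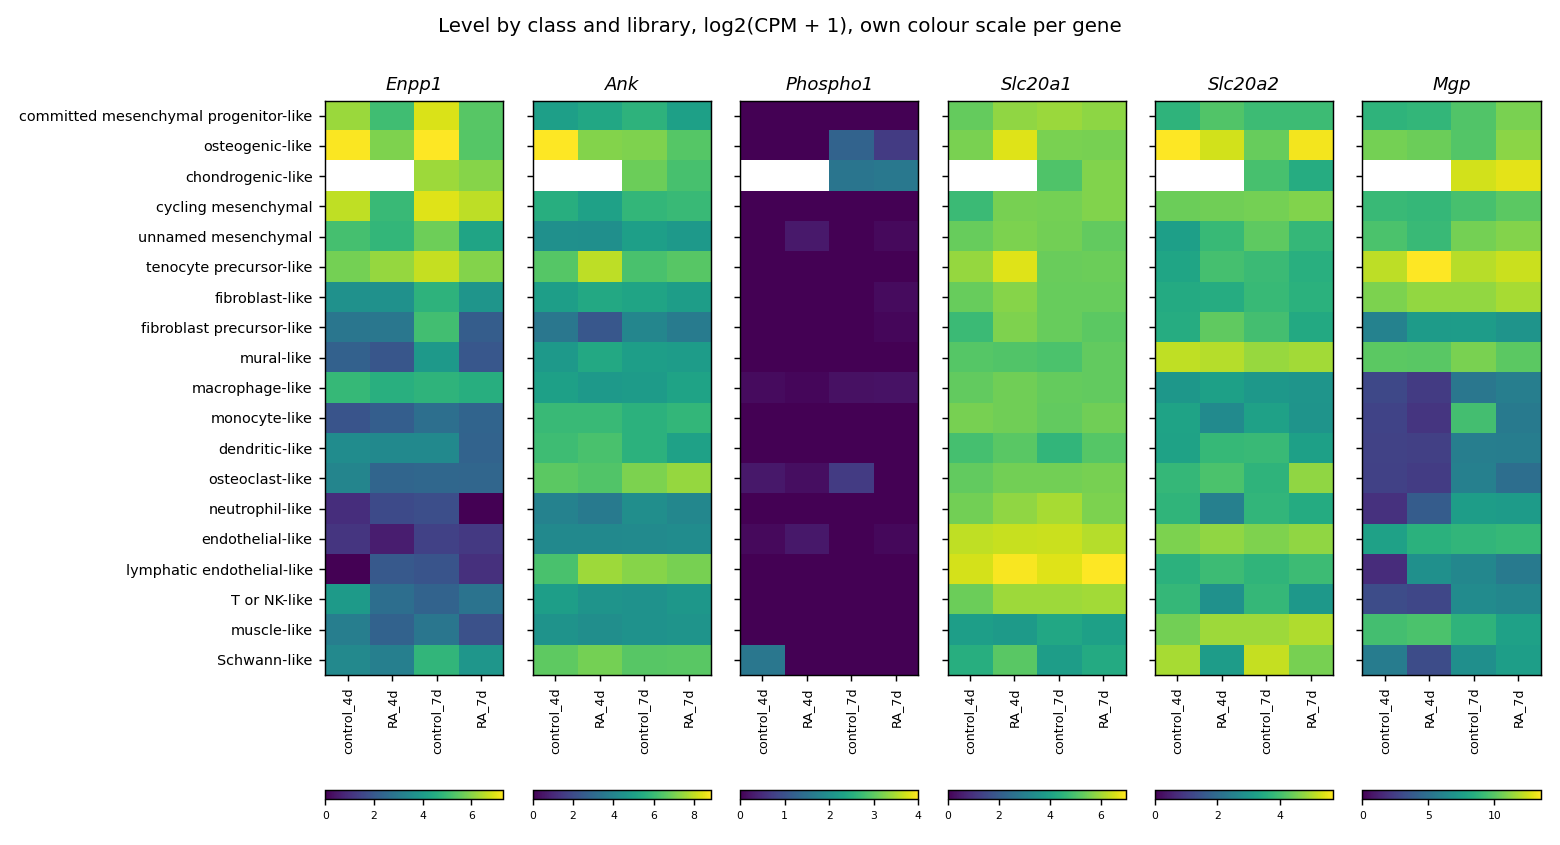
Level as log2(CPM + 1) (colour, own scale for each gene) of the 6 genes by class (rows) and library (columns). Enpp1 is brightest in control_7d mesenchymal rows, Ank also in osteoclast-like and lymphatic endothelial-like rows, Mgp in tenocyte precursor- and chondrogenic-like rows, and Phospho1 is near 0 except in chondrogenic- and osteogenic-like rows at 7 dpf, while its Schwann-like value in control_4d is 1 UMI. Blank squares are classes with fewer than 20 cells.

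The other genes of the pathway were taken from a list of 17. At 7 dpf 14 of them had at least 50 UMIs in mesenchymal cells. Of these 7 were lower in RA by a fold of at least 2, beside 1.04% of all genes, and 3 with a pseudocount of 10 CPM in place of 1. None was higher, with a median log2 ratio of −0.88 against −0.03 over all 17035 genes compared (1.64% of which were higher by that fold). The class shares of the mesenchymal sum also changed, and how far they moved the values of the list was not tested. Alpl went from 96.9 to 44.7 CPM (log2 ratio −1.10) and Smpd3, a sphingomyelinase needed for mineralization, from 50.6 to 23.5 (−1.07). Nt5e, which turns the AMP left by ENPP1 into adenosine, went from 47.0 to 18.2 (−1.32), and Ppa1, the cytosolic pyrophosphatase, from 166 to 79.7 (−1.05). The mineral-binding matrix genes followed, with Spp1 at −1.17, Ibsp at −1.60 and Dmp1 at −1.60. Lower values were not particular to mesenchymal cells for Spp1 and Ppa1. Of 19 classes of all lineages at 7 dpf, Spp1 was lower in RA by a fold of at least 2 in 10 and higher in 1. Ppa1 had a ratio interval below 1 in 15 of 19 classes and above 1 in 1. At 4 dpf the list stood otherwise: 12 genes were compared, none was lower by a fold of 2, and Alpl (1.01), Spp1 (1.08) and Ibsp (3.25) were higher in RA, Ibsp from 4.99 to 56.0 CPM, beside 0.752% of all genes. Few cells carried Alpl: after thinning, 9 of 963 mesenchymal cells of control_4d and 22 of 777 of RA_4d held a UMI. Single classes could be compared in 3 cases for Alpl and 2 for Ibsp. Over 18 classes of all lineages Spp1 was lower in RA by a fold of at least 2 in 11 and higher in 3.

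In chondrogenic-like cells at 7 dpf Alpl was 725 CPM in control and 695 in RA (−0.06, 0.911 to 1.01) and Smpd3 was 525 and 542 (0.05, 0.976 to 1.09), while Nt5e went from 385 to 178 (−1.10) and Dmp1 from 35.9 to 1.74 (−3.75). Osteogenic-like cells held Ibsp at 3645 and 3665 CPM (0.01, 0.975 to 1.04) and Alpl at 455 and 383 (−0.25, 0.767 to 0.924), with Spp1 and Ppa1 lower (−2.27 and −1.15) and Phex and Fam20c higher (1.30 and 1.08). In committed mesenchymal progenitor-like cells 12 genes were compared and Ibsp alone passed a fold of 2 (−2.71, from 32.7 to 4.16 CPM). Ppa1 was at −0.90, Alpl at −0.74 and Nt5e at −0.10 there. For the vitamin K enzymes that carboxylate MGP, Ggcx was at −0.05 and Vkorc1 at −0.05 in the same cells. Macrophage-like cells held Nt5e at 9.39 CPM in control_7d and 2.76 in RA_7d (−1.47), the only list gene past a fold of 2 there. Xpr1, the phosphate exporter, was highest in osteoclast-like cells, at 412, 536, 683 and 437 CPM in control_4d, RA_4d, control_7d and RA_7d.

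At 7 dpf the other Enpp genes were higher in RA in mesenchymal cells, apart from Enpp6. Among classes of all lineages, the ratio interval of Enpp2 lay above 1 in 9 of 11 and below 1 in none. For Enpp4 it was above 1 in 6 of 11 and for Enpp5 in 5 of 6, with none below. For Enpp3 it was above 1 in 5 of 8 and below 1 in 1, and Enpp6 was compared in 1 class. In mesenchymal cells at 7 dpf Enpp3, which neighbours Enpp1 on chromosome 10 and can hydrolyse the same nucleotides, went from 12.9 to 27.2 CPM (log2 ratio 1.03, 1.97 to 2.28), and from 12.2 to 27.5 CPM (1.11) in committed mesenchymal progenitor-like cells, beside 1.64% and 1.76% of all genes. Enpp2, the lysophospholipase autotaxin, was at 32.5 and 37.5 CPM (0.20), Enpp4 at 2.92 and 4.69 (0.54) and Enpp5 at 2.12 and 4.54 (0.83), while Enpp6 went from 1.27 to 0.648 (−0.46, 0.366 to 0.710). Mural-like cells held Enpp3 at 8.46 and 4.53 CPM (−0.78, 0.304 to 0.936). At 4 dpf Enpp3 was at 17.8 and 16.9 CPM (−0.07).

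**Figure D5:**
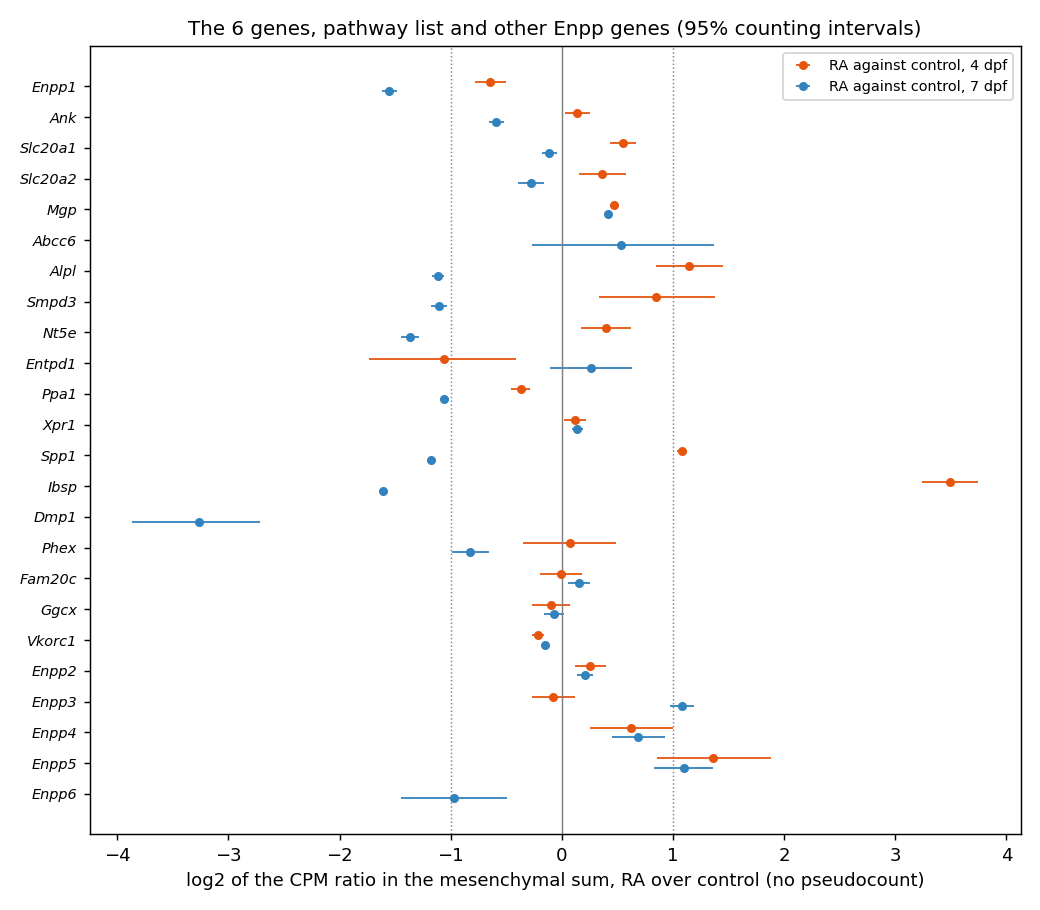
Log2 of the ratio of CPM, RA over control, without a pseudocount, in the mesenchymal sum (x axis) at 4 and 7 dpf (colour) for the genes described here, the pathway list and the other Enpp genes (y axis) that were compared, with 95% intervals of counting error. At 7 dpf Enpp1 (ratio 0.341) lies left of the dotted line of a fold of 2 with the 7 listed genes, farthest Dmp1, which was at 0.309 and 2.97 CPM, and Enpp3 lies on the other side.

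Cell by cell, Enpp1 and Ank went together in committed mesenchymal progenitor-like cells at 7 dpf. After thinning, 57 of 114 control_7d cells with an Ank UMI also held Enpp1, against 243 of 795 without (30.6%). In RA_7d these were 20 of 100 and 95 of 810 cells (11.7%), so at 7 dpf the share was lower in RA among cells with and without Ank. The order was reversed in control_4d, with 2 of 12 cells with Ank (16.7%) against 46 of 183 without (25.1%). RA_4d gave 5 of 26 (19.2%) and 25 of 174 (14.4%). In osteogenic-like cells of control_7d Enpp1 was held by 13 of 83 cells with an Alpl UMI (15.7%) and by 32 of 78 without (41.0%). RA_7d went the other way, with 6 of 47 (12.8%) and 2 of 30 (6.67%). On few cells, control_4d gave 2 of 6 and 6 of 18 (33.3% each), and RA_4d 0 of 6 and 4 of 21 (19.0%).

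Over 65 sums of a class in a library, the genes whose log2(CPM + 1) most resembled Enpp1 by Pearson's r were Calr (0.83), Edil3 (0.82), Nfatc2 (0.81), Selenos (0.81) and P4ha1 (0.79). Those for Mgp were Fzd8 (0.89), Pdgfrl (0.89), Bgn (0.88), Nhs (0.88) and Sparc (0.87). For Phospho1 they were Slc13a5 (0.89), Panx3 (0.84), Sp7 (0.80), Smpd3 (0.80) and Ifitm5 (0.79), on few UMIs. Ank had no close neighbour (Srgap3, 0.66), and those of Slc20a1 and Slc20a2 were led by Galt (0.67) and Rasal2 (0.79). The sums of a library share its preparation and depth, and r is given as a description. Between members r of Enpp1 was 0.44 with Mgp, 0.36 with Ank, 0.29 with Phospho1, 0.0035 with Slc20a2 and −0.09 with Slc20a1.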

How the data were processed

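The deposited matrices hold raw UMI counts, made by the authors with Cell Ranger 7.0.1 (mm10) and checked here to be whole numbers. Cells with 4000 to 50000 UMIs, 2000 to 7000 features and at most 8% mitochondrial UMIs were kept (25479 of 34038). The 4 libraries were integrated and clustered with Seurat 5.3.0 (R 4.3.3; canonical correlation analysis, 2000 variable genes without the listed genes, 30 dimensions for anchors, 15 principal components, resolution 0.5), and mesenchymal cells were clustered again at resolution 1. Of 34 clusters 30 were named from marker lists (score of at least 0.9, lead of at least 0.35, at least 3 detected markers and 1 among the 50 leading genes, under 25% doublets). 586 cells stayed unnamed, most in 1 cluster with 53.3% doublets by Scrublet (scanpy 1.11.5); doublets (592) were otherwise kept. These thresholds and the second clustering were set after the clusters were seen, and the genes and lists were chosen with earlier results of these data known.

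UMIs were summed per class and library. Levels are CPM with exact Poisson intervals, ratios are on the log2(CPM + 1) scale with exact conditional intervals of a ratio of counts, and differences of log2 ratios between classes use no pseudocount. Comparisons needed 50 UMIs of the gene in the pair of libraries and 20 cells of the class in each, and a fold of 2 was the rule for a count. Shares of cells used each cell thinned to 4000 UMIs. No test was run with 1 library per group. The count functions were checked on sums simulated as Poisson counts. These lack the clumping of UMIs in single cells, so the check does not cover it. Likeness used sums of at least 50 cells and genes reaching 20 CPM. Named genes were the members, the list, the other Enpp genes, markers and the 5 closest genes per member. Gene positions are from GENCODE M21 and promoters from RefSeq on GRCm38.p6, which held 4 of the 6 members.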

Additional observations from a re-analysis of the deposited data

Results flagged for a closer look

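Values of the 6 genes that went opposite ways at 4 and 7 dpf were collected for the mesenchymal, mural and myeloid classes, where both ratio intervals left out 1 and both folds were at least 1.25. There were 7, each resting on 1 library per group and time, and the difference between the times was not tested. Enpp1 in tenocyte precursor-like cells had a log2 ratio of RA to control of 0.35 at 4 dpf and −0.71 at 7 dpf. Ank in committed mesenchymal progenitor-like cells had 0.33 and −0.67, but 1 RA_4d cell held 62 of the 255 UMIs, and without the highest cell of each library the 4 dpf value was 0.09. Slc20a2 had 0.78 and −0.54 in fibroblast precursor-like cells, and 0.62 and −0.48 in unnamed mesenchymal cells. Mgp had 1.41 and −0.45 in fibroblast precursor-like cells, −0.52 and 0.34 in unnamed mesenchymal cells, and −0.59 and 0.40 in macrophage-like cells, where it was at the level of background.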

How the results depend on the processing

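Of 749 values recomputed under alternatives for 130 results, 627 moved by less than counting error or by less than 1.5 times for a count. The sign changed in 30 values of 14 results, and 2 of these values belonged to a log2 value of at least 1 in size. The results under 1 were Enpp1 in chondrogenic-like cells at 7 dpf and in fibroblast-like and dendritic-like cells at 4 dpf, Ank in mesenchymal cells at 4 dpf and in cycling and osteoclast-like cells at 7 dpf, Slc20a1 in mesenchymal, fibroblast-like and osteoclast-like cells and Slc20a2 in cycling cells at 7 dpf, and Mgp in osteogenic-like cells at 4 dpf and T or NK-like cells at 7 dpf. With 1 library per group no library could be left out. The alternatives on the second clustering, the doublet-rich cluster and the cells with the most UMIs of a gene, and those without doublets for the other 5 genes by class, were added after seeing the data.

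The log2 ratio of Enpp1 at 7 dpf in committed mesenchymal progenitor-like cells was −1.35 with a looser cell filter, −1.62 at resolution 1 and −1.30 with a pseudocount of 10 CPM. In the mesenchymal sum it was −1.48 with TMM scaling, −1.28 with a pseudocount of 10 CPM, −1.67 without tenocyte precursor-like cells, −1.25 with classes weighted equally and −1.15 with the class shares of control. At 4 dpf the mesenchymal value was −0.98 with the looser filter, −0.50 with a pseudocount of 10 CPM and −0.47 as a mean over cells. In mural-like cells at 7 dpf it was −0.91 with a pseudocount of 10 CPM. The number of pathway genes lower by a fold of at least 2 in mesenchymal cells at 7 dpf was 3 with that pseudocount. Of values of at least 1, those that changed sign were the difference between fibroblast precursor-like and committed mesenchymal progenitor-like cells at 7 dpf, which was 0.26 without integration, and Slc20a2 in osteoclast-like cells at 7 dpf, which was −0.46 without the 5 highest cells of each library. Ank in osteoclast-like cells at 7 dpf went from 0.36 to −0.58 without the highest cell. The cause was not tested for any of these, beyond the pseudocount, which shrinks ratios of low genes by construction.

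Single classes depended on the naming. At 7 dpf the log2 ratio was −1.09 in chondrogenic-like cells at resolution 0.3, −1.10 in osteogenic-like cells with the listed genes among the variable genes, and −1.68 in fibroblast-like cells at resolution 0.3, where 2 mesenchymal classes passed a fold of 2. No paired analysis was possible because each group holds 1 library. Phospho1 and, without doublets, Enpp1 in mural-like cells were limited by depth.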
